A study of Mus musculus with 2 samples.

Results

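The 32 genes described here encode proteins that the liver secretes into blood plasma, and they were followed in the RNA of the newborn mouse stomach. They were taken by name from a list of plasma proteins, and each of the 32 was found among 43346 genes with an Ensembl identifier. Total RNA above 200 nucleotides was profiled from the whole stomach of 2 pups of strain B6NCrl on the day of birth (day 0), with 10 ng of RNA and 1 library per pup. The labels describe the stomachs as pup 2 and pup 1 of the same pregnancy, record that sex was not collected and name no treatment or mutant allele, so both libraries belong to 1 group and the comparison is between littermates. The depth was 49983574 expected counts in pup 2, against 51524479 in pup 1. With 1 library for each pup, differences are given against quantification and counting error, and no p was computed.

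Plasma proteins carry hormones, lipids, metals and vitamins, form clots, hold proteases in check and mark microbes for removal. In the adult most of them come from hepatocytes, whose promoters are known for binding sites of the factors HNF1, HNF4, FOXA and C/EBP. The fetal liver makes many of them before birth, with alpha-fetoprotein as the main plasma protein of the fetus, and it also houses blood formation until about the time of birth. The yolk sac and parts of the gut epithelium are known to express some of the same genes.

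Nearly the whole set was present at low to middling levels, and most of it was higher in pup 2. In all, 30 of the 32 genes had a TPM (a level per transcript length, scaled so that libraries can be compared) of at least 1 in both pups, against 61.2% of 21474 protein-coding genes. The summed TPM was 547 in pup 2 and 386 in pup 1, or 466.5 ± 114 (SD, n = 2), and the genes took 0.0680% of the counts in pup 2 and 0.0482% in pup 1. The ratio of these shares, pup 2 over pup 1, was 1.41, with an exact 95% counting interval of 1.39 to 1.43. Counting intervals here cover counting error only, since PCR copies of a molecule are not counted apart from it.

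The call used for single genes asked for 3 things: TPM values at least 2-fold apart, deposited 95% intervals of TPM with no overlap, and at least 100 expected counts on average. Of 30 members with enough counts, 10 were called higher in pup 2 (33.3%), against 0.301% of 13951 genes tested, and 0 were called lower, against 0.122%. These 10 were Afp, Gc, Apoh, Fga, Fgb, Fgg, Kng1, Plg, Serpinc1 and Itih3, and they made up 10 of the 42 genes called higher in the whole table. Their TPM ratios lay between 2.09 and 2.59, and the nearest gene below the limit was Hpx at 1.99. At a limit of 1.5-fold, 20 members were called higher, against 1.08% of genes tested, and 0 lower, against 0.552%. In all, 30 of the 31 members averaging at least 1 TPM were higher in pup 2 and 1 was lower, against 58.4% of protein-coding genes higher; C3, among the 30, turned slightly lower with TMM or DESeq2 scaling. The median log2 ratio, log2((TPM of pup 2 + 1)/(TPM of pup 1 + 1)), was 0.63 over these 31 members and 0.03 over 13339 protein-coding genes at that level, whose middle 95% ran from -0.35 to 0.38. This scale understates differences of low genes. In bulk tissue, more cells of a type and more RNA per cell cannot be told apart, so the values describe the RNA of each whole stomach.

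**Figure D1:**
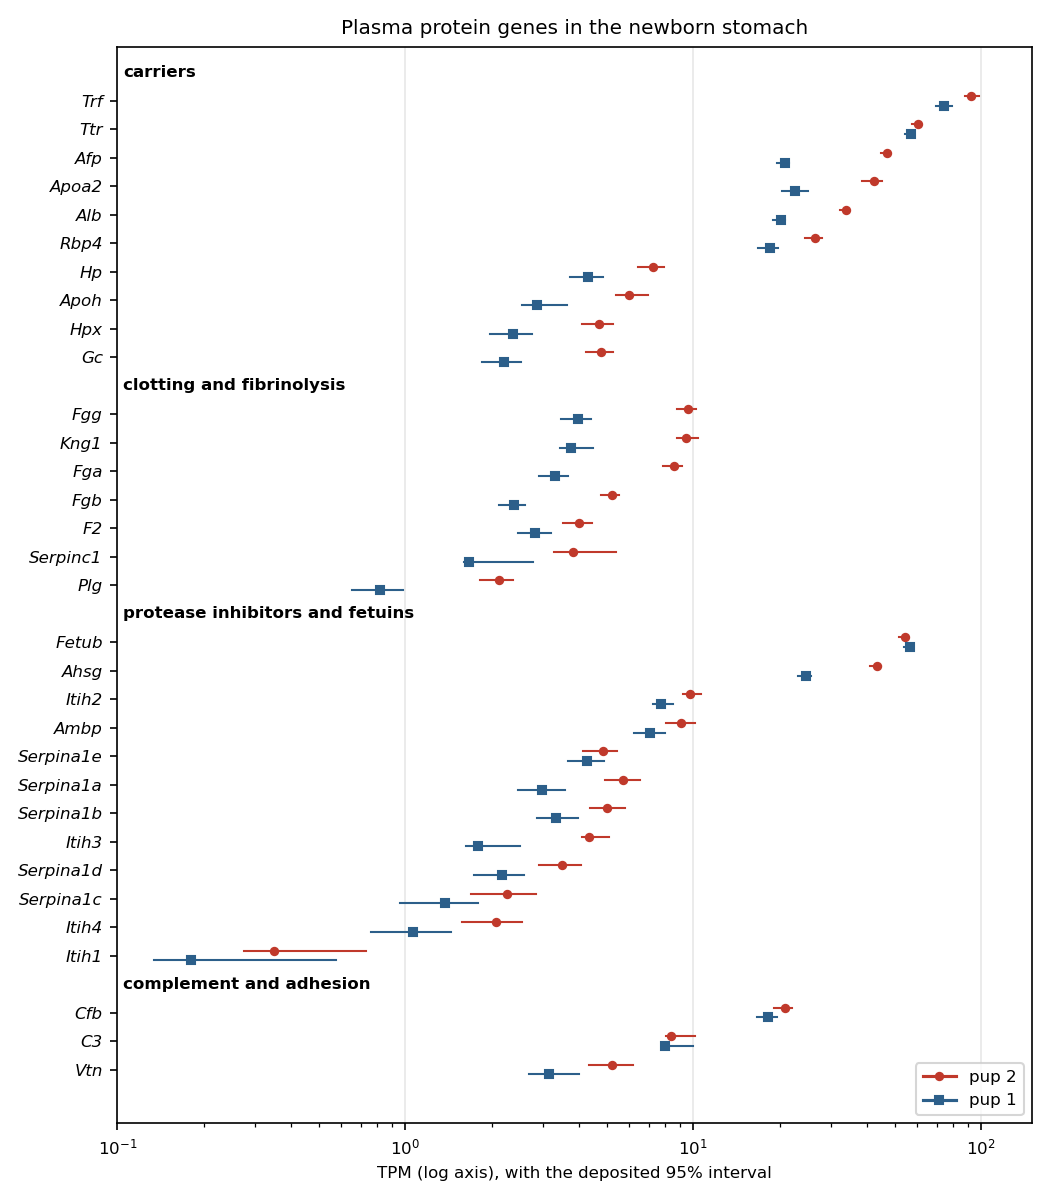
TPM of the 32 genes in pup 2 (circles) and pup 1 (squares) on a log axis, grouped by role and ordered by mean level, with the deposited 95% interval as a line. Trf is highest in both pups at 92.0 and 74.2, Itih1 is lowest at 0.35 and 0.18, and the fibrinogen genes, Kng1 and Plg show wide gaps between the pups while Ttr, Fetub and C3 lie close together.

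The carriers were the most abundant role, with a summed TPM of 325 in pup 2 and 225 in pup 1. In this role 10 of 10 were higher in pup 2, against 58.4% of protein-coding genes at a mean TPM of at least 1. Of the 10, 3 were called higher, against 0.301% of 13951 genes tested. Afp (mm10 chr5:90490737-90508907, plus strand) encodes alpha-fetoprotein, the fetal relative of albumin. It stood at 47.2 TPM in pup 2 and 20.8 TPM in pup 1, with deposited intervals of 45.0 to 48.0 and 19.5 to 21.5. The ratio of its count shares was 2.25 (2.12 to 2.38), from 3723 and 1706 expected counts, which makes it the call with the most reads. Alb (chr5:90460897-90476602, plus), the adult counterpart, had 34.0 TPM in pup 2 and 20.2 TPM in pup 1, and a share ratio of 1.67 (1.57 to 1.78). The intervals of Afp and Alb lay apart in pup 2, with Afp higher, whereas in pup 1 the intervals of Afp (19.5 to 21.5) and Alb (18.9 to 20.8) overlapped. Gc, the vitamin D binding protein and another gene of that family on chromosome 5, had 4.79 TPM in pup 2 and 2.20 TPM in pup 1. Summed, the 3 albumin family genes reached 85.9 in pup 2 and 43.1 in pup 1, a ratio of 1.99.

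The start regions of Alb, Afp and Gc are shown because these genes on chromosome 5 belong to 1 gene family. The windows cover 250 bases before to 50 after the start in RefSeq on GRCm38.p6, the assembly of the files, at chr5:90460620-90460919 (plus strand) for Alb, chr5:90490464-90490763 (plus) for Afp and chr5:89457849-89458148 (minus) for Gc, each read 5′ to 3′ along its gene. Capitals mark the letters GTTAAT, the core of an HNF1 site, or the reverse complement ATTAAC.
Alb: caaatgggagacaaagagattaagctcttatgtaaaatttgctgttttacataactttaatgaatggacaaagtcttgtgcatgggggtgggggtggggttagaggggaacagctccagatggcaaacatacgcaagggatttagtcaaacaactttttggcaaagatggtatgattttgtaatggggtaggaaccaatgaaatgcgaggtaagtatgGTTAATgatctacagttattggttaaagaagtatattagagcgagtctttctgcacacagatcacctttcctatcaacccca
Afp: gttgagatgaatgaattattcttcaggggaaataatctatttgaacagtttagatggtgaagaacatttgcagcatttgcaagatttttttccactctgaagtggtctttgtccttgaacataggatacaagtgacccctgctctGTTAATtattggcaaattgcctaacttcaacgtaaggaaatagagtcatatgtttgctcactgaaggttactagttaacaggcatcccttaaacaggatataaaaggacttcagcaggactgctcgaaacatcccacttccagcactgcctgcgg
Gc: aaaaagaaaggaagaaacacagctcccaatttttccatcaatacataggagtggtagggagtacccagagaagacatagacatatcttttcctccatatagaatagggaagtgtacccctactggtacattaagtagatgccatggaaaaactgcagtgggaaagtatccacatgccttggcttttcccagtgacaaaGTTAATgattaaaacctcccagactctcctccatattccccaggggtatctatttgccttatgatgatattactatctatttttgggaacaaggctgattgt
Each of the 3 windows held the letters once, beginning at position -32 relative to the RefSeq start in Alb, -105 in Afp and -52 in Gc.

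Other carriers differed less evenly. Trf, the iron carrier transferrin, was the highest member, at 92.0 TPM in pup 2 and 74.2 TPM in pup 1, with ranks of 1403 and 1725 among protein-coding genes. Its intervals lay apart at 87.5 to 98.4 and 69.4 to 79.1, but the ratio of 1.24 was far below 2-fold. Of its 100-base transcript windows 46.8% were found in no other gene, since the annotated gene Gm20425 on the same strand shares the rest, and that gene held 968 counts in pup 2 and 831 in pup 1. Ttr, the thyroid hormone carrier transthyretin, was nearly level, at 60.4 TPM in pup 2 and 57.1 TPM in pup 1 with overlapping intervals and a share ratio of 1.05 (0.992 to 1.10). Its partner in retinol transport, Rbp4, stood at 26.5 in pup 2 and 18.4 in pup 1, with a share ratio of 1.43 (1.29 to 1.58). Thus the genes of the 2 partners had share ratios whose intervals did not overlap.

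Apoa2, a protein of high density lipoprotein, had 42.3 TPM in pup 2 and 22.6 TPM in pup 1. Its intervals of 38.7 to 45.3 and 20.3 to 24.9 lay apart, at a ratio of 1.87 that stayed under the limit. The haem and haemoglobin scavengers followed the same direction, with Hpx at 4.71 in pup 2 and 2.37 in pup 1 and Hp at 7.26 in pup 2 and 4.32 in pup 1. Apoh, a phospholipid binding plasma protein, was called higher at 5.97 in pup 2 and 2.86 in pup 1. The carriers other than Ttr thus had intervals apart and were higher in pup 2, in 9 of 10 genes. Over all 13951 genes tested, 12.9% had intervals apart and were higher, and 8.33% had intervals apart and were lower.

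**Figure D2:**
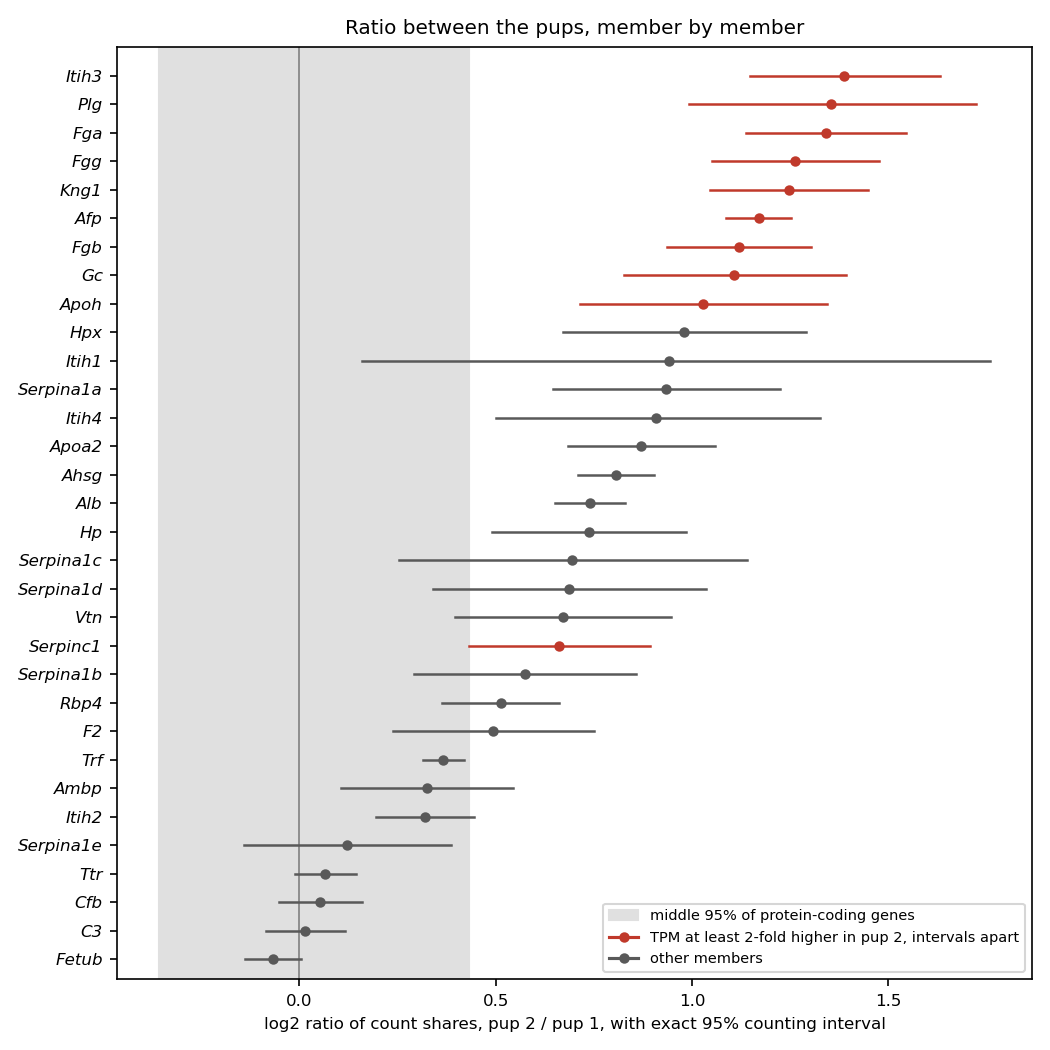
Ratio of count shares, pup 2 over pup 1, on a log2 axis for each of the 32 genes, with the exact 95% counting interval; red marks the 10 genes called higher and the grey band is the middle 95% of 13243 protein-coding genes with a mean count of at least 100. Of the 30 members tested, 22 lie above the band, while Serpina1e, Ttr, Cfb, C3 and Fetub have intervals that include a ratio of 1.

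The clotting and fibrinolysis genes had the largest ratios of the 4 roles, with a summed TPM of 42.8 in pup 2 and 18.7 in pup 1. In this role 6 of 7 genes were called higher, against 0.301% of 13951 genes tested. Fga, Fgb and Fgg encode the chains of fibrinogen, the precursor of the fibrin clot, and lie side by side on chromosome 3, Fgg at chr3:83007724-83015049 (plus), Fga at chr3:83026076-83033627 (plus) and Fgb at chr3:83040141-83049863 (minus). Fga had 8.59 TPM in pup 2 and 3.32 TPM in pup 1. Fgb had 5.21 in pup 2 and 2.38 in pup 1, and Fgg 9.62 in pup 2 and 3.97 in pup 1. The intervals of each chain lay apart, and the share ratios of 2.53 (2.20 to 2.92), 2.17 (1.91 to 2.47) and 2.40 (2.07 to 2.78) in that order overlapped one another. The chains therefore differed between pups by similar factors, while Fgb was the lowest chain in both pups.

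The windows of Fga and Fgb are shown because the genes code for chains of 1 protein and are read in opposite directions. They lie at chr3:83025903-83026202 (plus) for Fga and chr3:83049814-83050113 (minus) for Fgb, with the HNF1 core letters, here as ATTAAC, in capitals.
Fga: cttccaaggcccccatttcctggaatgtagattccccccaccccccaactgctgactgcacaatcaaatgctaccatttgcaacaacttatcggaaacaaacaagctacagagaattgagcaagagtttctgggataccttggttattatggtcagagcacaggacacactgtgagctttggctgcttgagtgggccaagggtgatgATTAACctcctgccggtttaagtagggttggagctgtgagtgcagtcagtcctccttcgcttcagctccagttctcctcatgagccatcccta
Fgb: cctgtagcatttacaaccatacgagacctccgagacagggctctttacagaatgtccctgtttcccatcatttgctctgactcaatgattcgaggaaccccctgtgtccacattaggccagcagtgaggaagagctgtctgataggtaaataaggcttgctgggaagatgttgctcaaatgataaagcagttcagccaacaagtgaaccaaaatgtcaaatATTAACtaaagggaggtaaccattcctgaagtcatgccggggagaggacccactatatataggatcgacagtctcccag
The match began at -43 relative to the start in Fga and at -29 in Fgb, and both windows also held the C/EBP letters TTGCNNAA. Fgg, the remaining chain and also called, had a window too, in which neither the HNF1 letters nor the C/EBP letters were found.

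Kng1 (chr16:23057865-23082078, plus) encodes kininogen, the source of bradykinin, and stood at 9.45 TPM in pup 2 and 3.75 TPM in pup 1, a share ratio of 2.37 (2.06 to 2.73). The gene did not differ evenly across its transcripts. Kng1-202 had 6.14 in pup 2 and 3.60 in pup 1, and made up 65.0% of the gene's TPM in pup 2 and 96.0% in pup 1, or 62.3% in pup 2 and 86.1% in pup 1 by the deposited posterior means. Kng1-203, also protein-coding, had 2.94 in pup 2 and 0.05 in pup 1, from 183 and 3.54 estimated counts, and its intervals of 1.73 to 4.12 and up to 0.507 did not overlap. Windows found in no other gene made up 95.1% of Kng1, and the related Kng2 held 55.7 counts in pup 2 and 49.9 in pup 1. Transcript levels are estimates that divide shared reads, and this split has no replicate check.

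Plg (chr17:12378608-12419385, plus), the precursor of the clot-dissolving enzyme plasmin, was low and passed a TPM of 1 in pup 2 alone, at 2.11 in pup 2 and 0.82 in pup 1. Its share ratio was 2.55 (1.99 to 3.30). Serpinc1, antithrombin, an inhibitor of thrombin, had 3.82 TPM in pup 2 and 1.66 TPM in pup 1, a ratio of 2.30. By counts the difference was smaller, at 396 in pup 2 and 258 in pup 1 with a share ratio of 1.58 (1.35 to 1.86). Its long transcript Serpinc1-201 stood at 1.67 in pup 2 and 1.19 in pup 1, while the short Serpinc1-204, annotated for nonsense-mediated decay, had 0.97 in pup 2 and 0.21 in pup 1. The gene overlaps Zbtb37 on the opposite strand, which held 286 counts in pup 2 and 265 in pup 1, and no source used here gives strandedness, so the reads of the pair cannot be told apart. F2, the precursor of thrombin itself, was the exception among the 7, with 4.01 in pup 2 and 2.82 in pup 1, intervals apart and a ratio of 1.42.

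**Figure D3:**
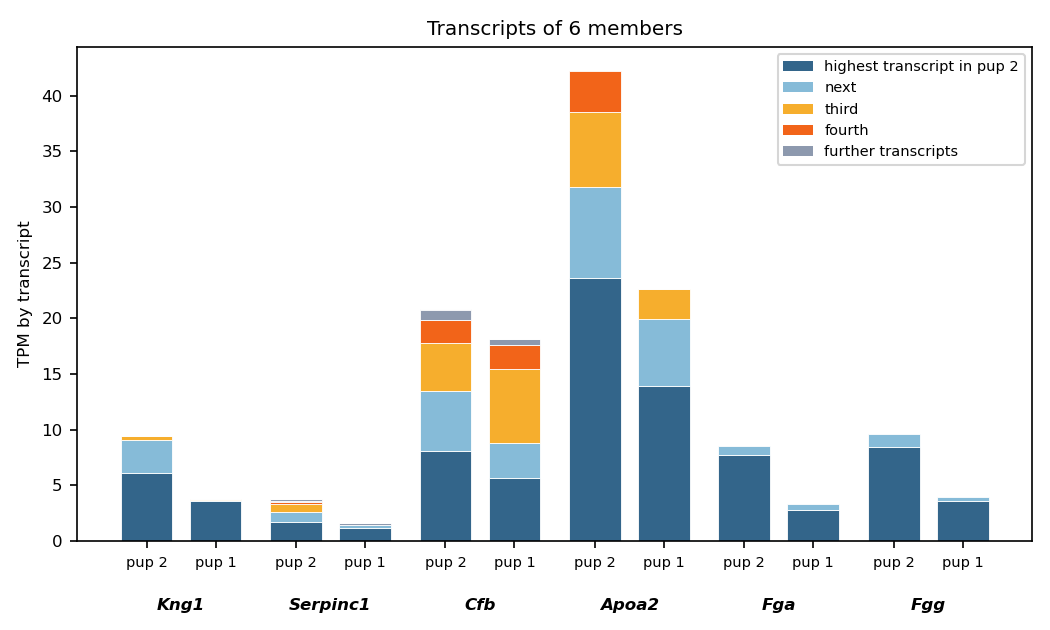
Transcript levels of 6 members as stacked TPM, pup 2 left and pup 1 right for each gene, with transcripts coloured by their order in pup 2. Kng1 holds a second transcript at 2.94 in pup 2 and 0.05 in pup 1, while Fga and Fgg are led by the same transcript in both pups.

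Most members kept 1 leading transcript. Among 21 members with at least 2 transcripts the same transcript led in 19, and in Itih1 a pair of transcripts tied in both pups. In Cfb the order depended on the estimate. Cfb-206 made up 39.1% in pup 2 and 31.1% in pup 1 and Cfb-202 20.6% in pup 2 and 36.5% in pup 1, but by the deposited posterior means Cfb-206 led in both, at 37.4% in pup 2 and 30.5% in pup 1. The share of the leading transcript differed by more than 10 percentage points in Kng1, Serpinc1 and Serpina1e. Fga-201, the shorter of the 2 Fga forms, held 89.6% in pup 2 and 85.2% in pup 1, and Fgg-201 held 88.3% in pup 2 and 90.9% in pup 1.

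The protease inhibitors and fetuins had a summed TPM of 145 in pup 2 and 113 in pup 1. In this role 1 of 10 tested genes was called higher, against 0.301% of 13951 genes tested. Ahsg (chr16:22891277-22899449, plus) and Fetub (chr16:22918334-22939778, plus) are neighbouring genes that encode the fetuins, inhibitors of the cystatin superfamily, and they did not differ alike. Ahsg had 43.6 TPM in pup 2 and 24.7 TPM in pup 1, with intervals of 41.2 to 44.7 and 23.1 to 25.7. Fetub had 54.3 in pup 2 and 56.4 in pup 1, with intervals of 51.8 to 55.6 and 53.8 to 57.6 that overlapped. The share ratios were 1.75 (1.64 to 1.87) for Ahsg and 0.955 (0.908 to 1.00) for Fetub, which was the 1 member of 31 at a mean TPM of at least 1 that was lower in pup 2.

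The Fetub window at chr16:22918132-22918431 (plus) is shown as that of the member with the lowest ratio. The letters GTTAAT and ATTAAC are not in it.
Fetub: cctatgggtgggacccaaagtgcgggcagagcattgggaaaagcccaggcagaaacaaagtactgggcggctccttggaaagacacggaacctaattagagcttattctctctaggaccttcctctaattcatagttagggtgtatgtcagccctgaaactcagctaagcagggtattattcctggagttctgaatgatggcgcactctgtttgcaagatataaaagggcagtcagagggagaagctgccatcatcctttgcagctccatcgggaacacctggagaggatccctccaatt
It held the TATA letters TATAAA from -31 and the FOXA variant TGTTTGC from -42 relative to the start.

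The Serpina1 genes are mouse copies of the gene for alpha-1-antitrypsin, an inhibitor of neutrophil elastase, and lie together on chromosome 12. Their summed TPM was 21.4 in pup 2 and 14.1 in pup 1, with a share ratio of 1.48 (1.35 to 1.63). Serpina1a stood at 5.72 in pup 2 and 2.98 in pup 1, and Serpina1e at 4.86 in pup 2 and 4.29 in pup 1. The share ratios of these copies were 1.91 (1.57 to 2.34) and 1.09 (0.906 to 1.31) and did not overlap. Serpina1b had 5.0 in pup 2 and 3.33 in pup 1, Serpina1d 3.51 in pup 2 and 2.17 in pup 1, and Serpina1c 2.26 in pup 2 and 1.37 in pup 1. The most abundant transcripts of the copies were 96.3% to 98.5% identical over the 10 pairs, and the part of 100-base windows found in no other gene ran from 30.7% in Serpina1c to 85.6% in Serpina1e. Reads can therefore be divided among the copies in several ways, so the values of single copies are uncertain. The sum does not depend on the division among the copies. It can depend on reads shared with Gm8893, at 5.42 counts in pup 2 and 2.66 in pup 1, and B430119L08Rik, at 1.17 in pup 2 and 0 in pup 1.

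The windows of Serpina1a and Serpina1e are shown to display how alike the copies with the highest and the lowest ratio are. They lie at chr12:103863570-103863869 (minus) and chr12:103956848-103957147 (minus), and capitals mark the 10 mismatches over the 243 bases that align, at 95.9% identity.
Serpina1a: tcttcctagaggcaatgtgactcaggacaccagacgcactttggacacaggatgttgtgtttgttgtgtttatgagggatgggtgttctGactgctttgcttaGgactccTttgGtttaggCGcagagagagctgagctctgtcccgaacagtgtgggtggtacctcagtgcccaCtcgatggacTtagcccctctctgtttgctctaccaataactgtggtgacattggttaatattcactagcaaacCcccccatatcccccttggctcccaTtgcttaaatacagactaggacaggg
Serpina1e: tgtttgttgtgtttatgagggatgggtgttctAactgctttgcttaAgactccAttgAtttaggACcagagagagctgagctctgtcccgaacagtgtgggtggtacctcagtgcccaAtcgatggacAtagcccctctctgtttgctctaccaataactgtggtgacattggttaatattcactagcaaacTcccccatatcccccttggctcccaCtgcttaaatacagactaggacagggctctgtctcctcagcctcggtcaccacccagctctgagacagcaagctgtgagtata
The windows are offset because the annotated starts of the copies lie at different places in the shared sequence.

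The inter-alpha-trypsin inhibitor genes encode a family of heavy chains, several of which bind hyaluronan, and Ambp encodes the light chain bikunin together with a lipocalin. Itih3 (chr14:30908572-30923760, minus) was called higher, at 4.34 TPM in pup 2 and 1.79 TPM in pup 1 and a share ratio of 2.62 (2.22 to 3.10), the highest of the members. Itih2 was the most abundant heavy chain at 9.74 in pup 2 and 7.73 in pup 1, and its share ratio of 1.25 (1.14 to 1.36) lay below that of Itih3. Itih4 stood at 2.06 in pup 2 and 1.06 in pup 1, and Itih1 at 0.35 in pup 2 and 0.18 in pup 1, on 41 and 22 expected counts. Ambp had 9.06 in pup 2 and 7.05 in pup 1, close to the ratio of Itih2. The heavy chain genes Itih1, Itih3 and Itih4 are neighbours on chromosome 14, whereas Itih2 lies on chromosome 2.

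The complement and adhesion genes differed least, with a summed TPM of 34.4 in pup 2 and 29.3 in pup 1. In this role 0 of 3 were called, against 0.301% called higher and 0.122% called lower of 13951 genes tested. C3, the central protein of the complement cascade, had 8.40 in pup 2 and 7.96 in pup 1, with a share ratio of 1.01 (0.944 to 1.08); its log2 ratio of 0.07 became -0.01 with TMM or DESeq2 scaling of counts. Cfb, factor B of the alternative pathway, had 20.8 in pup 2 and 18.2 in pup 1, on 1479 and 1469 expected counts. Of its windows 33.1% were found in no other gene, but Gm20547, which shares the rest, had 0 counts in both pups. Vtn, the adhesion protein vitronectin, stood apart from both, at 5.20 in pup 2 and 3.15 in pup 1, with intervals of 4.36 to 6.18 and 2.69 to 4.00.

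Across roles the calls lay among the lower genes. Of the 9 members at 10 TPM or more on average, 1 was called and the median TPM ratio was 1.44, while of the 21 tested members below 10, 9 were called and the median ratio was 1.94. Intervals overlapped in 5 of 30 tested members, namely Ttr, Fetub, C3, Cfb and Serpina1e. The other 25 had intervals apart and were higher in pup 2 (83.3%), against 12.9% of the genes tested, and 0 had intervals apart and were lower, against 8.33%.

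**Figure D4:**
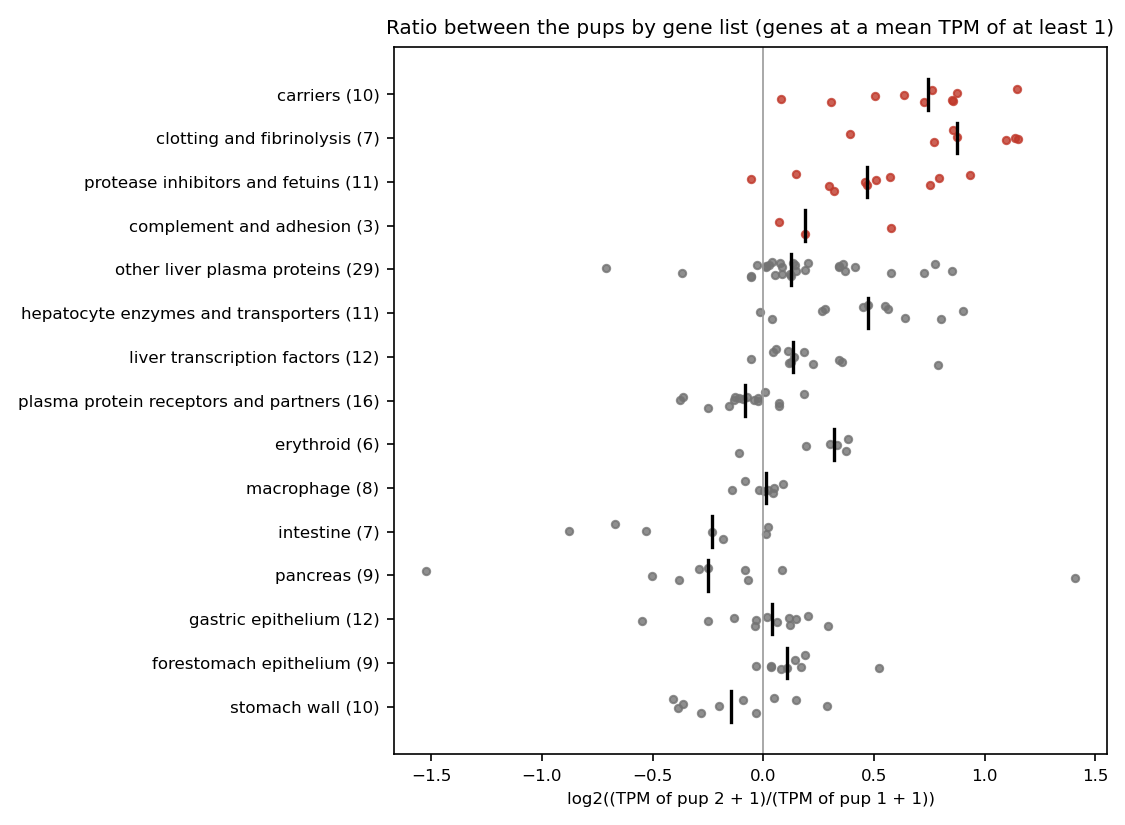
log2((TPM of pup 2 + 1)/(TPM of pup 1 + 1)) for genes with a mean TPM of at least 1, by list, with the number of genes in brackets and the list median as a black bar; red marks the 4 roles of the 32 genes. The clotting genes have a median of 0.88 and the carriers 0.74, against 0.47 for hepatocyte enzymes, 0.13 for liver transcription factors and 0.04 for gastric epithelium.

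Most other plasma protein genes of the liver were also higher in pup 2. Of the 29 at a mean TPM of at least 1, 24 were higher and 5 lower, against 58.4% of protein-coding genes higher. The summed TPM of the list was 1755 in pup 2 and 1785 in pup 1. Of 61 found, 26 were detected in both pups, and the median log2 ratio was 0.12 over those 29. Of 25 tested, 2 were called higher, against 0.301% of 13951 genes tested, and 0 lower, against 0.122%. The genes called were Apcs, a pentraxin, at 4.76 in pup 2 and 2.36 in pup 1, and Pzp, a broad protease inhibitor, at 1.43 in pup 2 and 0.63 in pup 1. The 3 most abundant were Apoe at 374 in pup 2 and 329 in pup 1, Igfbp2 at 261 in pup 2 and 428 in pup 1, and Apoa1 at 287 in pup 2 and 273 in pup 1. These lipid carriers and the growth factor binding protein stood above every one of the 32 genes.

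Most markers of hepatocytes lay in the same direction at low levels. Of 36 hepatocyte enzymes and transporters, 8 were detected in both pups, 0 had a count of 0, and the summed TPM was 195 in pup 2 and 144 in pup 1. Of 11 tested, 3 were called higher, against 0.301% of 13951 genes tested, and 0 lower, against 0.122%. Those higher included Cyp3a11, a drug-metabolising P450, at 1.92 in pup 2 and 0.56 in pup 1. Mat1a, a methionine cycle enzyme, was also among them, at 1.57 in pup 2 and 0.65 in pup 1. Arg1 of the urea cycle, which is not restricted to hepatocytes, led the list at 118 in pup 2 and 79.7 in pup 1, above Ass1 at 30.3 in pup 2 and 29.5 in pup 1 and Fah at 11.4 in pup 2 and 11.5 in pup 1. Of 12 defining hepatocyte genes, 1 was detected in both pups, the tryptophan-degrading Tdo2 at 3.07 in pup 2 and 2.35 in pup 1, and the other 11 reached at most 1.92 in pup 2 and 0.83 in pup 1. By count share, 28 of the 36 genes were higher in pup 2 and 8 were lower, and the counting interval lay above 1 in 13 and below 1 in 0. Among 21474 protein-coding genes, that interval lay above 1 in 3594 and below 1 in 2441. Cyp7a1, the bile acid synthesis enzyme, had the lowest counts, at 3 in pup 2 and 7 in pup 1. The part of hepatocyte RNA in the ratios of the 32 genes was not tested.

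Transcription factors of the liver, which foregut epithelium also uses, had a median log2 ratio of 0.13 over 12 genes, with Cebpb at 51.7 in pup 2 and 47.2 in pup 1, Foxa3 at 39.6 in pup 2 and 33.8 in pup 1, and Hnf4a at 23.6 in pup 2 and 20.7 in pup 1. Onecut2 was called lower, at 0.22 in pup 2 and 0.44 in pup 1. Foxa1, named after its values were seen, differed most among these 12, at 24.6 in pup 2 and 13.8 in pup 1, with a share ratio of 1.77 (1.67 to 1.87) that met the 1.5-fold limit. Red cell genes also stood higher in pup 2, with a summed TPM of 1928 in pup 2 and 1525 in pup 1, 6 of 11 detected in both pups and the embryonic globins Hbb-bh1 and Hbb-y at 0 counts in at least 1 pup. Their median log2 ratio was 0.32, with Hba-a2 at 815 in pup 2 and 646 in pup 1, Hbb-bs at 529 in pup 2 and 429 in pup 1 and Hba-a1 at 347 in pup 2 and 268 in pup 1, and 0 were called. Their part in the result was not tested.

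The defining genes of the stomach were abundant. Of 12 gastric epithelium genes 12 were detected in both pups, led by Cym at 64809 in pup 2 and 59783 in pup 1, Pga5 and Tff1, with a median log2 ratio of 0.04. Forestomach genes, led by Krtdap, Cnfn and Krt4, had 0.11 and genes of the stomach wall, led by Acta2, Actg2 and Col3a1, had -0.15, with 0 called in each. Without a fold limit, 7 of 12 gastric genes had intervals apart and higher in pup 2, and 5 lower. For 9 forestomach genes these counts were 7 and 0, and for 10 wall genes 3 and 7. Over the 13951 genes tested the shares were 12.9% and 8.33%.

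The promoter windows of the members were compared with those of all genes in the RefSeq table. A window was found for 26 of the 32 genes, and both strands were searched for 6 spellings, kept after further ones had been tried on these windows. The HNF1 core GTTAAT lay in 13 of 26 members, against 8.24% of 27025 genes. The C/EBP letters TTGCNNAA lay in 15 of 26, against 12.2%, and the FOXA variant TGTTTGC in 10 of 26, against 5.76%. TGTTTAC, the other FOXA spelling, lay in 4 members, against 4.05% of genes, TATAAA in 8, against 15.7%, and CAAAGTCCA, an HNF4 spelling, in 0, against 0.555%. No match overlapped one of another motif. The 5 Serpina1 copies share sequence, so they count as copies rather than separate cases. Each copy held GTTAAT and TGTTTGC, and all but Serpina1c held TTGCNNAA. Members with GTTAAT included the called genes Afp, Gc, Fga and Fgb as well as Serpina1e, which had a ratio near 1. The called genes Apoh, Fgg, Serpinc1 and Itih3 had windows without GTTAAT on either strand. A match is a run of letters and not a measured binding site.

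**Figure D5:**
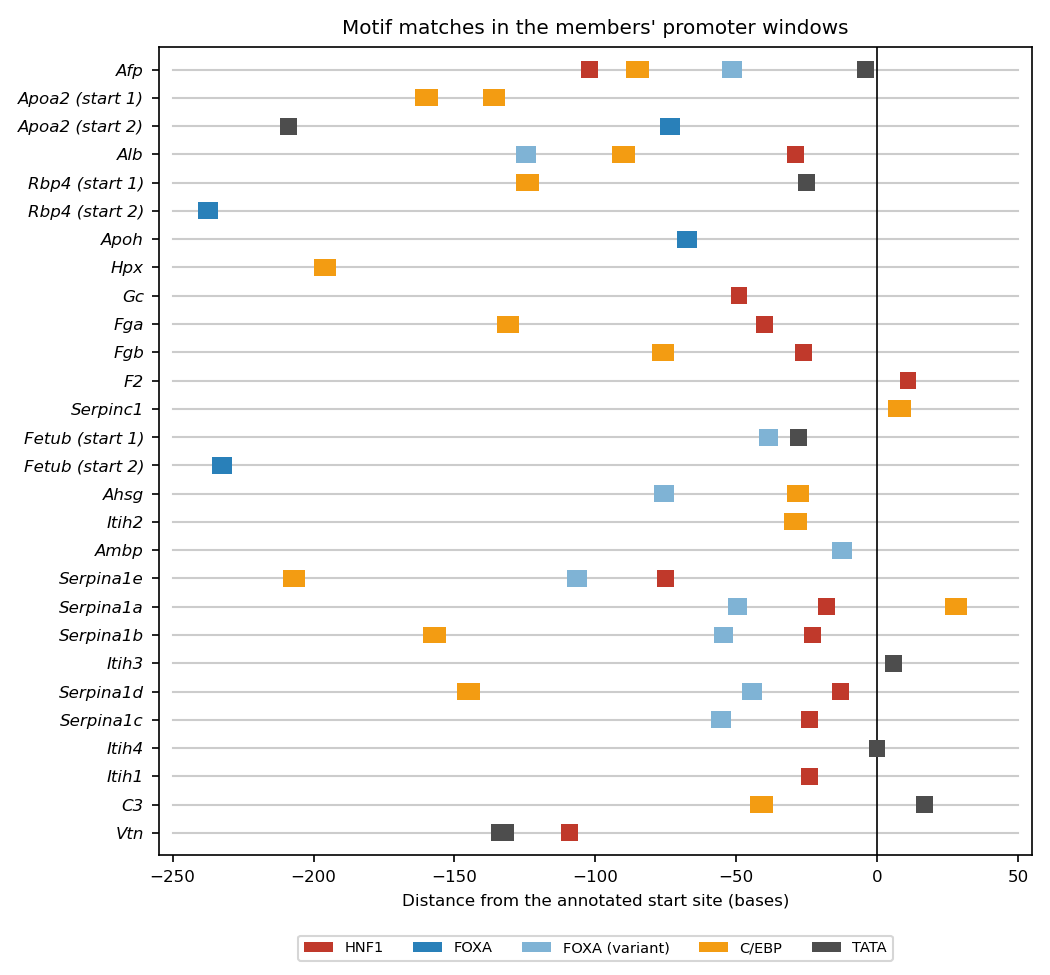
Motif matches in the 28 promoter windows of members that hold at least 1 match, drawn to scale by distance in bases from the annotated start, with members that have more than 1 annotated start given a row each. The HNF1 letters of 12 members lie before the RefSeq start, from -112 in Vtn to -16 in Serpina1d, and those of F2 lie after it. RefSeq starts differ from GENCODE gene starts in some members, F2 among them.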

How the data were processed

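Total RNA of the stomach was measured in 2 newborn littermates, 1 library each, treated as 2 replicates of 1 group. The deposited files are gene and transcript tables on the mm10 build and GENCODE M4 genes, according to the deposited descriptions. Column names follow RSEM; no source used here names the aligner, the quantifier or the strand setting. Deposited expected counts are unscaled estimates of reads per gene, in which shared reads are divided. Deposited TPM values share 1 total per library and come with 95% intervals. Deposited FPKM values served as an alternative. The deposited isoform percent gives how a gene's TPM divides over its transcripts.

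Symbols and positions came from GENCODE M21 on the same assembly, which matched 42462 of 43346 Ensembl genes. Ratios are pup 2 over pup 1, with a pseudocount of 1 on TPM and a minimum mean TPM of 1 for medians. Ratios of count shares have exact binomial (Clopper-Pearson) 95% intervals; these and the floor of 3 counts that a count of 0 allows cover counting error alone. The spread between the pups over 17904 genes, as edgeR's square root of the common dispersion on rounded expected counts with TMM scaling, was 0.0941. The calling rule was tested on simulated counts that held counting error alone, with no spread between pups and no shared reads. The deposited TPM intervals were not part of that test. All 32 members were named, and of each other list the 3 genes with the highest mean TPM and each gene called, except 1 gene that is not reported here. Members, lists and motif spellings were chosen with earlier results of these data known. Promoter sequences are RefSeq's, on GRCm38.p6. Motif positions refer to RefSeq starts, which in some members, such as Alb, Afp and F2, differ from the starts of the GENCODE gene positions. Analyses used Python 3.11.15, pandas 2.3.3, NumPy 2.4.6, SciPy 1.17.1, Biopython 1.88, matplotlib 3.10.9, R 4.3.3, edgeR 4.0.16 and DESeq2 1.42.0, the last for size factors in an alternative. With 1 group, no differential test was run.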

Additional observations from a re-analysis of the deposited data

How the results depend on the processing

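The number of members called higher in pup 2 followed the fold limit: 20 at 1.5-fold and 0 at 3-fold, against 10 at 2-fold, where all genes had 151, 13 and 42 calls of 13951. At 1000 or more counts on average, 9 members were tested and 1, Afp, was called, against 9 of 7855 genes. Among the 20 tested members whose transcript windows are found in no other gene, an alternative added after seeing the data, 6 were called. With exact Poisson intervals on counts scaled by TMM, 9 were called, without Serpinc1. The count was 10 with a count minimum of 10, with none, with the median ratio set to 0 and with FPKM intervals, and 0 were called lower in each of these alternatives. The median log2 ratio ran from 0.57 to 0.75 over its alternatives. At a TPM of at least 5, 12 members were detected in both pups; leaving out a pup gave 30 to 31 at a TPM of at least 1, and a summed TPM of 386 to 547. The median share of the leading transcript was 93.9%, 88.1% by posterior mean, and 92.5% to 94.3% when a pup was left out. Of 160 alternative ratios of single members, 143 lay inside the counting interval of the member's share ratio and 17 outside it; 2, both of C3, had the other sign, at -0.01 with TMM and with DESeq2 scaling. No paired analysis was possible because there is 1 group. With 1 library per pup, a difference between pups and one between libraries cannot be told apart.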

Other observations

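Receptors and partners of the plasma proteins lay slightly lower in pup 2 on the whole, with a summed count share ratio of 0.949 (0.936 to 0.963). Of the 16 genes at a mean TPM of 1 or more, 12 were lower, against 5499 of 13339 protein-coding genes at that level. Of 24 genes, 16 were detected in both pups, the median log2 ratio was -0.08, and 0 of 19 tested were called in either direction. Without a fold limit, 5 of the 19 had intervals apart and were lower, against 8.33% of 13951 genes tested. In 0 of them the intervals lay apart and higher, against 12.9%. Plau, a plasminogen activator, and Cfp, properdin of complement, named after their values were seen, were lowest, with share ratios of 0.686 (0.559 to 0.839) and 0.734 (0.616 to 0.872). The complement regulator gene Cr1l stood at 63.6 TPM in pup 2 and 64.6 TPM in pup 1, the integrin gene Itgav, whose product binds vitronectin, at 59.9 in pup 2 and 63.8 in pup 1, and Fcgrt, whose product recycles albumin and antibodies, at 60.5 in pup 2 and 60.2 in pup 1.

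Lists of neighbouring tissues and of macrophages had medians near or below 0. Intestine genes had a median log2 ratio of -0.23, with the brush border enzymes Alpi, at 4.89 in pup 2 and 9.83 in pup 1, and Lct, at 1.11 in pup 2 and 2.36 in pup 1, called lower, and were led by Fabp1, Rbp2 and Fabp2. Pancreas genes had -0.25, led by Ctrb1, at 17.2 in pup 2 and 20.6 in pup 1, Cela2a and Amy2a5. In that list the insulin genes, named after their values were seen, went the other way, with Ins2 at 5.55 in pup 2 and 1.47 in pup 1, on 82 and 22 counts, and Ins1 at 0.71 in pup 2 and 0.24 in pup 1; both had too few counts to be tested. Macrophage genes had 0.01, led by C1qb, Lyz2 and C1qa. Of 7 adipose genes, 2 had a mean TPM of at least 1, Fabp4 and Cidea, both slightly lower in pup 2.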
